A study of Bos grunniens with 36 samples.

Results

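TM4SF18, HES2 and MACC1 are 3 genes outside cell division, picked for the steadiest change in mammary gland RNA over the 9 sampled days. They were found in the deposited table of normalized values as every probe that carries their symbol, which gave 6 probes (3 for TM4SF18, 2 for HES2 and 1 for MACC1) of 34997 in the table, and 3 of the 20110 symbols there. Biopsies of the rear glands of 4 female yaks (Bos grunniens) were taken at day -30 and day -15 before calving and at day +1, +15, +30, +60, +120, +180 and +240 after it. No other treatment is given in the labels, and no strain, age or parity. Each of the 36 biopsies went on 1 single-colour array of a cattle design, and the same animal number is the same yak at every day. The left and right gland were sampled in turn, fat and connective tissue were dissected away, and the side of each array is not given in the labels, so it was no term of any comparison. The 3 genes were chosen by the size and steadiness of their change between days in these same arrays, so their levels below are a description and were not tested.

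The table and the scanner files give conflicting days. By its values, every one of the 36 table columns is the same array as exactly 1 scanner file, and that file carries another sample's label for 36 columns and another day for 27. All days and animals below are those of the table's column titles. Every statement about a day rests on that record being right, and which record is right was not tested.

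TM4SF18 belongs to the L6 family, small proteins that cross the membrane repeatedly and resemble the tetraspanins; its relative TM4SF1 is known from endothelial and tumour cells. HES2 is a basic helix-loop-helix repressor of the Hairy and Enhancer-of-split family, whose best known member, HES1, is switched on by Notch receptors. MACC1 is known from colon cancer as an activator of the gene for MET, the receptor of hepatocyte growth factor (HGF), a pathway that acts between stroma and epithelium in the growing mammary gland. Around calving the gland passes from growth of its epithelium to milk secretion, so that genes of cell division and of milk proteins mark the course.

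A probe of each gene is printed below, since each value rests on a short stretch of the transcript. Positions are those of the cattle assembly UMD 3.1 as the scanner files give them, and the sequences are cattle sequences set on yak RNA.
TM4SF18 probe 3, spanning chr1:119803866-119817033 on the plus strand: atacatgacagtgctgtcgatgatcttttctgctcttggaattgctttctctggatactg
HES2 probe 2, chr16:47798637-47798696 on the plus strand: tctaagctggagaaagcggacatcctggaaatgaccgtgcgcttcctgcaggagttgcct
MACC1 probe 1, chr4:28856328-28856387 on the minus strand: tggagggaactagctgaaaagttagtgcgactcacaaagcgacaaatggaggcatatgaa
No base is in capitals, since no motif was searched. The 60 bases of TM4SF18 probe 3 span 13168 bases of the genome, so that this probe lies across an intron and reads spliced RNA. TM4SF18 probes 1 and 2 lie at chr1:119823164-119823223 and chr1:119823106-119823165 and overlap at their ends. HES2 probe 1 lies at chr16:47800426-47800485, 1789 bases beyond probe 2 on the same strand, and the files tie the HES2 probes to different transcript records. Probes are numbered by their mean signal, and all 6 were well above the local background on 36 of 36 arrays.

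In the mean of all 4 animals, TM4SF18 had its highest level 15 days before calving and its lowest at day +180. Values are log2 signals relative to the array, where 0 is the 75th percentile of all signals of that array, so that a difference of 1 is a doubling. At day -30, probe 1 read 2.10, 1.71, 1.83 and 1.48 in animals 1 to 4, at day -15 it read 1.92, 2.76, 2.08 and 2.52, and at day +1 it read 2.31, 1.47, 2.41 and 1.67. These 3 days overlap, and their order differs between animals. The values then lay at 1.31, 1.42, 1.20 and 0.72 at day +15, at 0.39, 0.91, 1.78 and 0.59 at day +30, and at 0.68, 0.43, -0.31 and 0.10 at day +60. Every animal was lower at day +15 than at day +1, while animal 3 at day +30 was back at its level of day -30. Late in lactation, probe 1 read -0.04, -0.28, -0.59 and -0.52 at day +120, -1.07, -0.52, -0.52 and -0.37 at day +180, and -0.73, -0.94, -0.49 and 1.69 at day +240. Animals 1 to 3 stayed low at the last day, and animal 4 was within the range of day -30.

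By day, the mean of TM4SF18 probe 1 was 1.78 ± 0.26 (SD, n = 4) at day -30, 2.32 ± 0.39 at day -15, 1.16 ± 0.31 at day +15, 0.23 ± 0.43 at day +60, -0.36 ± 0.25 at day +120, -0.62 ± 0.31 at day +180 and -0.12 ± 1.22 at day +240. Relative to its own day -30, each animal differed at day +180 by a mean of -2.40 ± 0.56, a level 5.28-fold lower, with 4 of 4 animals lower. At day +240 the mean difference was -1.90 ± 1.42, with 3 of 4 animals lower. Without the array of animal 4 at that day it was -2.50. Over animals 1 to 3 alone, the mean was -0.719 at day +240 and -0.704 at day +180. Which of these days was lowest thus rested on animal 4. Over all 4 animals, from highest to lowest, the days ran -15, +1, -30, +15, +30, +60, +240, +120 and +180. In that order only day -30 and day +15 were neighbours whose ranges did not overlap, and of all 36 pairs of days 20 did not overlap. The share of all probes was not taken for such pairs, so the count only describes a gene chosen for its change. The course was not a straight descent: 6 of the 8 steps between successive days went down in the mean and 2 went up.

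The other probes of TM4SF18 gave the same course. Probe 2 averaged 0.98 ± 0.25 at day -30 and -1.52 ± 0.27 at day +180, a mean difference of -2.50 ± 0.51. Probe 3, which lies across the intron, averaged -0.08 ± 0.24 and -2.78 ± 0.35, a mean difference of -2.70 ± 0.58. Over the 36 arrays, which share animals and days, Pearson's r was 0.984 between probes 1 and 2, 0.985 between probes 1 and 3 and 0.992 between probes 2 and 3. After the mean of each day was taken off, r stayed at 0.956, 0.953 and 0.978, so that the probes also followed each other within a day. All 3 probes lay wholly below day -30 at day +15, +60, +120 and +180. Of the 34995 probes kept, 13.8%, 19.4%, 5.85% and 11.5% did so at those days, a share given for scale, since the choice of the gene used the same values.

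**Figure D1:**
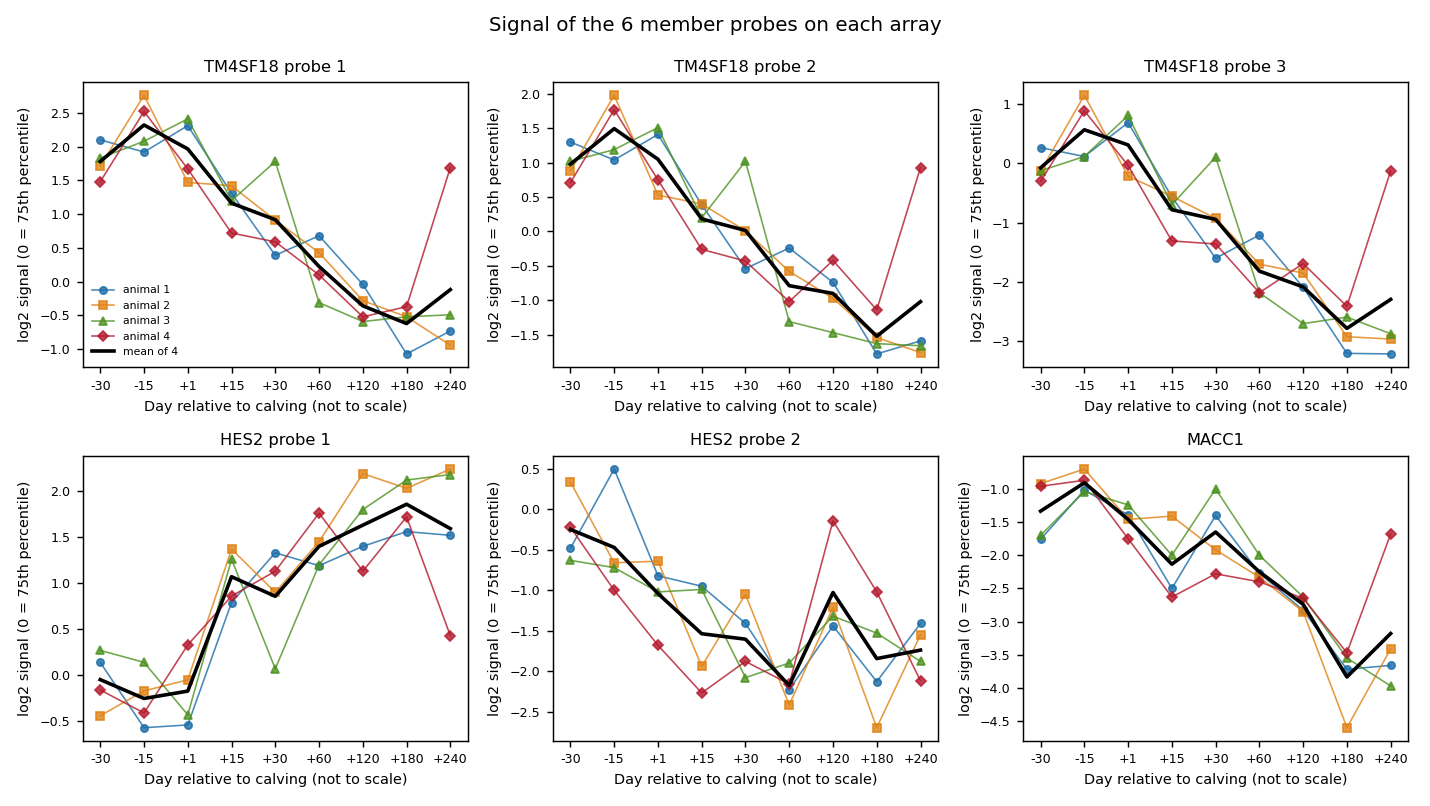
Log2 signal of the 6 probes (y axis, 0 is the 75th percentile of the array) by day relative to calving (x axis, not to scale), with 1 coloured line per animal and the mean of 4 in black. TM4SF18 and MACC1 go down, with animal 4 back up at day +240 (1.69 at TM4SF18 probe 1 and -1.68 at MACC1), while the probes of HES2 go opposite ways.

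HES2 gave opposite courses at its probes. Probe 1 was low around calving and higher through lactation. It read 0.14, -0.44, 0.27 and -0.16 in animals 1 to 4 at day -30, -0.57, -0.17, 0.14 and -0.41 at day -15, and -0.54, -0.05, -0.43 and 0.33 at day +1. These 3 days overlap at a level close to the 75th percentile of the array. It then read 0.79, 1.37, 1.26 and 0.86 at day +15, 1.33, 0.90, 0.07 and 1.13 at day +30, and 1.19, 1.45, 1.20 and 1.76 at day +60. Animal 3 at day +30 was again near its level of day -30, and the other arrays of these days were above every array of day -30. Late in lactation it read 1.40, 2.19, 1.80 and 1.13 at day +120, 1.56, 2.03, 2.12 and 1.72 at day +180, and 1.52, 2.24, 2.18 and 0.43 at day +240. Animal 4 was the lowest at day +240, still above the highest array of day -30.

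The mean of HES2 probe 1 went from -0.05 ± 0.32 (SD, n = 4) at day -30 to 1.07 ± 0.29 at day +15, 1.40 ± 0.27 at day +60, 1.86 ± 0.26 at day +180 and 1.59 ± 0.84 at day +240. The difference from the same animal's day -30 averaged 1.91 ± 0.43 at day +180, a level 3.75-fold higher, and 1.64 ± 0.88 at day +240, with 4 of 4 animals higher at both days. From highest to lowest the days ran +180, +120, +240, +60, +15, +30, -30, +1 and -15, and none of the 8 neighbours in that order lay apart. Of the 36 pairs of days 17 did not overlap, a count with no share over all probes beside it. Over animals 1 to 3 alone, the highest mean was 1.977 at day +240, beside 1.905 at day +180. Probe 1 lay wholly above day -30 at day +15, +60, +120, +180 and +240, as did 16.7%, 15.6%, 3.07%, 4.68% and 6.63% of all probes kept.

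HES2 probe 2 had its highest mean at day -30 and its lowest at day +60. It read -0.48, 0.34, -0.63 and -0.22 in animals 1 to 4 at day -30, 0.50, -0.66, -0.72 and -1.0 at day -15, and -0.82, -0.64, -1.02 and -1.68 at day +1. At day +1 all 4 animals were below their own day -30, and the highest array of day +1 lay just below the lowest of day -30. It read -0.95, -1.94, -0.99 and -2.27 at day +15, -1.41, -1.05, -2.08 and -1.88 at day +30, and -2.23, -2.42, -1.90 and -2.16 at day +60. The arrays lay closest together at day +60. It read -1.44, -1.21, -1.32 and -0.14 at day +120, -2.13, -2.70, -1.53 and -1.02 at day +180, and -1.41, -1.55, -1.88 and -2.12 at day +240. Animal 4 was the highest of its day at day +120 and +180 and the lowest at day +240. The mean was -0.25 ± 0.43 at day -30, -2.18 ± 0.22 at day +60 and -1.74 ± 0.32 at day +240, so that the mean difference was -1.93 ± 0.62 at day +60 and -1.49 ± 0.49 at day +240, with 4 of 4 animals lower. Probe 2 lay wholly below day -30 at day +1, +15, +30, +60, +180 and +240, as did 11.8%, 13.8%, 9.53%, 19.4%, 11.5% and 8.11% of all probes kept.

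Within an animal, the 2 probes of HES2 moved apart after calving. Relative to day -30, probe 1 was higher and probe 2 lower in 4 of 4 animals at day +15, +60, +180 and +240, and in 3 of 4 at day +30 and day +120. The gap between the changes averaged 2.41 ± 1.42 at day +15, 3.38 ± 1.10 at day +60, 3.50 ± 1.35 at day +180 and 3.13 ± 1.03 at day +240. At those 4 days, probe 1 lay wholly above and probe 2 wholly below day -30. Of the 8744 genes with more than 1 probe, 1.19%, 1.2%, 0.686% and 0.572% had such a pair of probes at day +15, +60, +180 and +240. The deposited values therefore give HES2 no single direction, and whether the probes read different transcripts, or how well each matches yak RNA, was not tested.

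**Figure D2:**
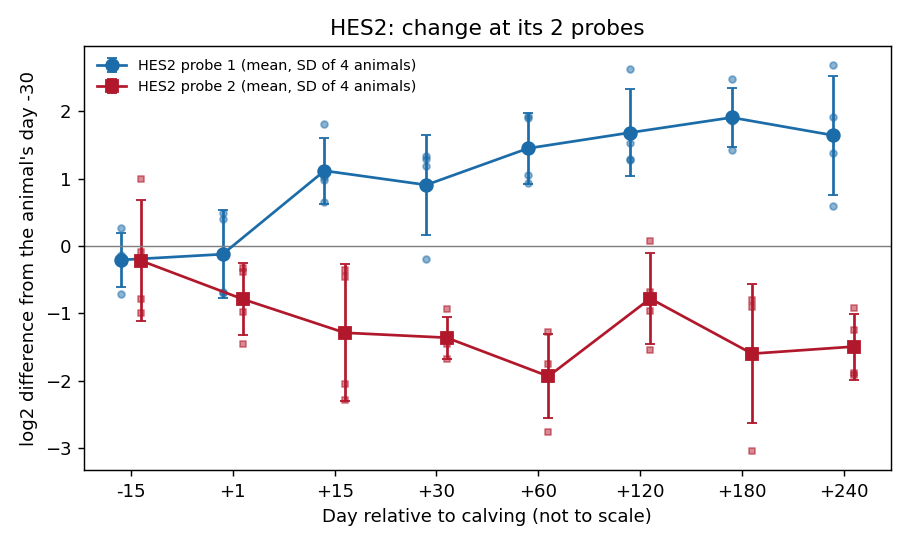
Difference of each animal from its own day -30 (y axis, log2) by day (x axis, not to scale) at HES2 probe 1 in blue and probe 2 in red, with points for animals and bars for the SD of 4. The means lie together at day -15 (-0.21 and -0.22) and apart at day +180 (1.91 and -1.60).

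MACC1 had its highest mean 15 days before calving and its lowest at day +180, as TM4SF18 had over all 4 animals. It read -1.76, -0.92, -1.70 and -0.96 in animals 1 to 4 at day -30, -1.02, -0.70, -1.04 and -0.87 at day -15, and -1.39, -1.46, -1.24 and -1.75 at day +1. All 4 animals were higher at day -15 than at day -30. It read -2.50, -1.41, -2.0 and -2.63 at day +15, -1.4, -1.92, -1.0 and -2.28 at day +30, and -2.27, -2.33, -2.0 and -2.40 at day +60. The arrays of day +15 and day +30 were spread, with animal 3 at day +30 as high as its day -15, and those of day +60 lay close together. It read -2.83, -2.85, -2.63 and -2.65 at day +120, -3.72, -4.60, -3.55 and -3.47 at day +180, and -3.66, -3.41, -3.97 and -1.68 at day +240. Animal 4 at day +240 was within the range of day -30, and animals 1 to 3 remained below every array of day +120.

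The mean of MACC1 was -1.33 ± 0.46 (SD, n = 4) at day -30, -0.91 ± 0.16 at day -15, -2.25 ± 0.18 at day +60, -2.74 ± 0.12 at day +120, -3.84 ± 0.52 at day +180 and -3.18 ± 1.02 at day +240. The difference from the same animal's day -30 averaged -0.92 ± 0.60 at day +60, -2.50 ± 0.84 at day +180, a level 5.67-fold lower, and -1.85 ± 0.79 at day +240, with 4 of 4 animals lower at each. With another background correction (normexp) the difference at day +60 was -0.50. From highest to lowest the days ran -15, -30, +1, +30, +15, +60, +120, +240 and +180, and only day +60 and day +120 were neighbours without overlap. Of the 36 pairs of days 18 did not overlap, a count with no share over all probes beside it. In the mean, 5 of the 8 steps between successive days went down and 3 went up. MACC1 lay wholly below day -30 at day +60, +120 and +180, as did 19.4%, 5.85% and 11.5% of all probes kept.

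Among the 34995 probes ranked by the moderated F over the 9 days, TM4SF18 probes 1, 2 and 3 stood at place 58, 141 and 105, MACC1 at 86, HES2 probe 1 at 94 and HES2 probe 2 at 2112. The genes were chosen for their change over the same days, so that these ranks are no independent result. Across the 36 arrays, TM4SF18 probe 1 and MACC1 had a Pearson r of 0.868 (Spearman's rho 0.878), and TM4SF18 probe 1 and HES2 probe 1 had -0.897 (rho -0.892). Once the mean of each day was taken off, these became 0.579 and -0.575, and without the array of animal 4 at day +240 they were 0.188 and -0.277. With TM4SF18 probe 2 the values within days went from 0.613 to 0.265 for MACC1 and from -0.679 to -0.466 for HES2 probe 1 without that array, and with probe 3 from 0.645 to 0.317 and from -0.629 to -0.374. The arrays share animals and days, so that these are descriptions with no test.

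**Figure D3:**
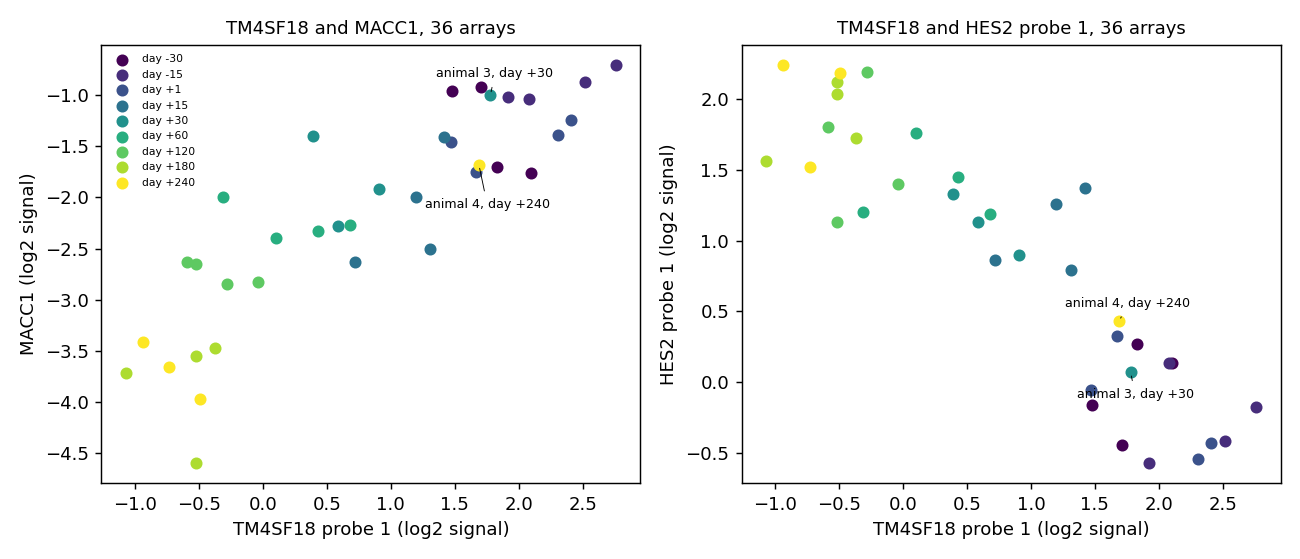
Log2 signal of TM4SF18 probe 1 (x axis) against MACC1 (left) and HES2 probe 1 (right) on each of 36 arrays, coloured by day. Animal 4 at day +240 lies apart from the other 3 arrays of its day in both panels, with 1.69 at TM4SF18 probe 1, -1.68 at MACC1 and 0.43 at HES2 probe 1; this last value is above the highest array of day -30, -15 and +1 (0.33).

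The arrays differed in ways that moved with these courses. The 75th percentile of the raw brightness was 4854 to 5752 intensity units on the arrays of day -30, and every array of day +15 (1029 to 2114), +60 (1278 to 2512), +180 (1529 to 4357) and +240 (1273 to 3883) was dimmer. At day +1, +30 and +120, 3 of 4 arrays were dimmer. The exceptions were animal 2 at day +1 (5355), animal 3 at day +30 (5698, others 1402 to 4447) and animal 4 at day +120 (6450, others 1178 to 2619). The bright array of animal 3 at day +30 is the one near that animal's day -30 at TM4SF18 probe 1 and HES2 probe 1. Each of the 9 slides held the arrays of 1 day, and each animal kept 1 position on the slide, so that slide and day, and position and animal, cannot be told apart. Over the 36 arrays, the r of log2 brightness was 0.493 with TM4SF18 probe 1, 0.498 with MACC1, -0.674 with HES2 probe 1 and 0.719 with HES2 probe 2, and with day means taken off it was 0.111, 0.215, -0.456 and 0.471. Its part in the courses was not tested. With 4 arrays a day the precision is limited, and p-values cover the spread between these biopsies of 4 yaks.

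The tissue carried the markers of mammary gland. The mean log2 signal of 15 luminal epithelial markers (keratins, claudins and hormone receptors among them) lay between 1.06 and 2.77 on the 36 arrays. The hormone receptors themselves read low: at day -30, ESR1 averaged -6.11 and PGR -1.94, and ESR1 was well above background on 30 of 36 arrays. The mean of 9 myoepithelial markers lay between 2.35 and 3.98. The 8 milk protein genes averaged 2.39 to 3.70 at day -30 and 6.80 to 7.37 at day +60. Animal 4 stood apart, with -0.31 at day +120 and -0.14 at day +180, where its 10 leukocyte markers averaged 0.73 and 0.85, above all other arrays. Animal 3 at day +30 had a milk protein mean of 3.25, where the other animals had 5.44 to 6.79, and animal 1 at day +240 had 3.32, where the others had 6.38 to 7.56. In biopsies, fewer cells of a type and less RNA per cell cannot be told apart.

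The mean signal of the cell division genes was lower from day +1 on. The mean of the list was -1.24 to -0.57 on the arrays of day -30 and -2.40 to -1.77 on those of day +1, a median difference of -1.38 over its genes, where TM4SF18 probe 1 differed by 0.18 and MACC1 by -0.12. Over the 9 days 26 of the 27 measured changed (limma F test, adjusted p under 0.05), where 39.9% of all probes did. At day +60, 26 were lower, where 16% of all probes were, and at day +240, 25, where 7.14% were; the median differences were -3.09 and -2.66, beside -0.12 and -0.05 over all probes. At day +1, 6 were lower, where 3.39% of all probes were. The list was chosen with earlier results of these data known, so that its counts are no independent result. KIF23, a kinesin of the spindle midzone that was well above background on 36 of 36 arrays, fell by 3.69 ± 0.51 (SE) at day +60, adjusted p = 1.37e-05, in 4 of 4 animals. Detection differed within the list. KIF20A was well above background on 23 of 36 arrays, ASPM on 22, PRR11 on 20 and DLGAP5 on 26, so that the means and medians of the list include signals near background. The mean of the list in animal 4 at day +240 was -1.81, where the other animals had -4.26 to -3.69, and TM4SF18 and MACC1 were high on the same array. The r over 36 arrays between the list's mean and the member was 0.816 for TM4SF18 probe 1, 0.784 for MACC1, -0.795 for HES2 probe 1 and 0.671 for HES2 probe 2, and with day means taken off 0.441, 0.642, -0.382 and 0.249. These values include the array of animal 4 at day +240. How far the values within days rest on that array was not tested. The part of dividing cells in the 3 courses was not tested.

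**Figure D4:**
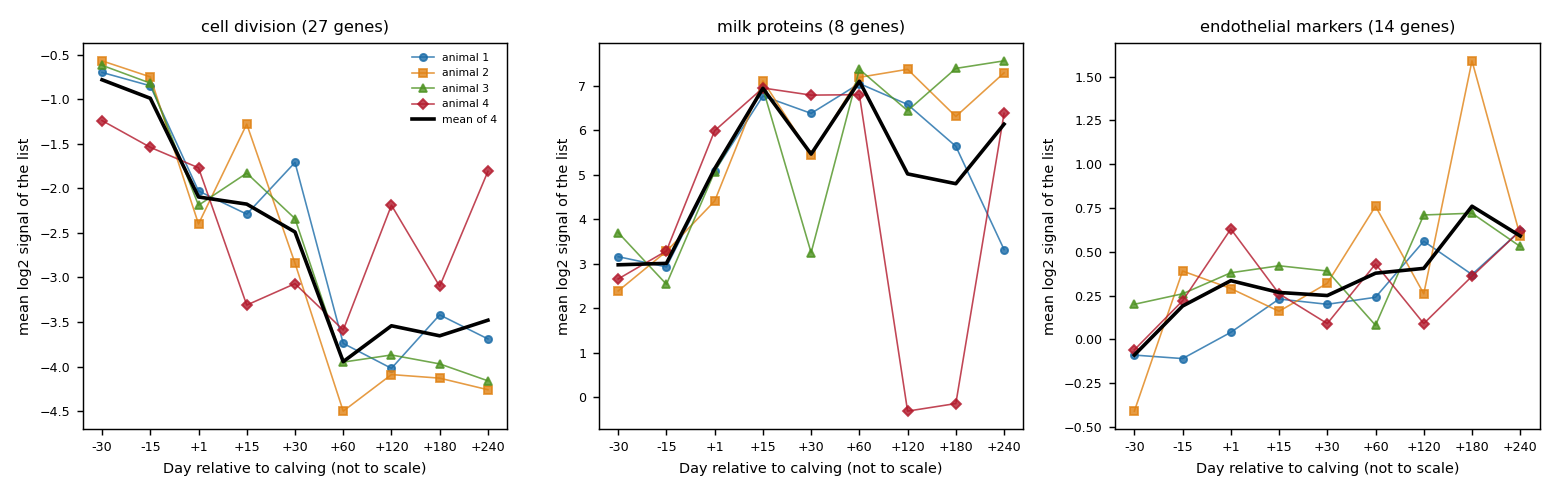
Mean log2 signal (y axis) of cell division genes, milk protein genes and endothelial markers by day (x axis, not to scale), with 1 line per animal and the mean of 4 in black. Animal 4 stands apart in cell division at day +240 (-1.81) and in milk proteins at day +120 and +180 (-0.31 and -0.14).

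Of 14 endothelial markers, 7 changed over the 9 days, where 39.9% of all probes did. Without animal 1, 2 or 3 the count was 3, 2 and 2, and with brightness in the fit 4. Over all probes it was 13961 with every array, 6639, 5305 and 3606 without animal 1, 2 or 3, and 9872 without animal 4. With brightness in the fit it was 12863 over all probes. Of the 14, 6 had risen by day +240, where 5.44% of all probes had. VWF, the clotting factor of endothelial granules, rose by 1.23 ± 0.30 (SE, adjusted p = 0.00943), and CLDN5, the claudin of vessel junctions, by 1.52 ± 0.30 (adjusted p = 0.00184), each in 4 of 4 animals. EGFL7, a protein secreted by endothelium, rose by 1.08 ± 0.30 (adjusted p = 0.0203), and PECAM1, an adhesion molecule of endothelial contacts, by 0.85 ± 0.22 (adjusted p = 0.0139). Over the 9 days the calls of EGFL7 and PECAM1 were lost when animal 1, 2 or 3 was left out, and that of PECAM1 also with quantile normalization and with brightness in the fit. Of the remaining lists, 3 of 15 luminal, 3 of 9 myoepithelial, 0 of 8 fibroblast, 1 of 6 adipocyte, 1 of 10 leukocyte and 3 of 8 milk protein genes changed over the 9 days, shares below the 39.9% of all probes. With 1 animal left out, the count of milk protein genes was 7 without animal 4 and 1 without animal 1, 2 or 3, and that of leukocyte genes 4 without animal 4 and 0 without animal 1, 2 or 3. That of luminal genes was 1 without animal 2 and 0 without animal 3, that of myoepithelial genes 1 without animal 1 or 2 and 0 without animal 3, and that of adipocyte genes 0 without animal 1, 2 or 3. At day +240, 1 of the 15 luminal genes was called higher and 0 lower, and of the 9 myoepithelial genes 2 and 0. Of all probes, 5.44% were higher and 7.14% lower. The luminal gene was KRT19, a keratin, 1.54 ± 0.37 higher (adjusted p = 0.00795). Luminal genes that were not called went both ways, with KRT18 at -0.27 and KRT8 at 0.47. Among the myoepithelial genes, MYH11, a smooth muscle myosin, was 1.25 ± 0.30 higher (adjusted p = 0.00739). OXTR, the oxytocin receptor of myoepithelium, was already 1.64 ± 0.44 higher at day +1 (adjusted p = 0.0262), where 1.78% of all probes were higher. The keratins of the myoepithelial list did not share a rise. KRT14 differed by -0.94 at day +60, lower in 4 of 4 animals (adjusted p = 0.130), and by -0.58 at day +240 (adjusted p = 0.420). KRT5 and KRT17 differed by -0.11 and -0.08 at day +60 and by 0.52 and 0.36 at day +240, and neither passed. LPO, the milk peroxidase, which was well above background on 34 of 36 arrays, rose by 9.89 ± 1.98 at day +60 (adjusted p = 0.000745), where 11.6% of all probes were higher. Over the 9 days KRT19 and MYH11 each lost their call under 4 of 12 alternatives, OXTR under 2 and LPO under 0. Of the 8 fibroblast markers, 0 had an unadjusted p under 0.05 in limma's F test.

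Of the 3 other L6 genes measured, TM4SF5, known from liver and tumour cells, was the only one that changed over the 9 days (adjusted p = 0.0342, limma F test), where 39.9% of all probes did. TM4SF5 differed by -1.50 ± 0.47 at day +60 (SE, adjusted p = 0.0189), in 4 of 4 animals, and differed by -1.30 ± 0.47 at day +240 (adjusted p = 0.0627). Its call over the 9 days was lost under 7 of 12 alternatives, with adjusted p from 0.00605 to 0.201. TM4SF1 averaged 2.71 at day -30 and 3.28 at day +240, a difference of 0.56 ± 0.26 that missed the threshold (adjusted p = 0.141). TM4SF4 was well above background on 27 of 36 arrays and differed by 0.97 ± 0.87 (adjusted p = 0.483). The differences between these genes and TM4SF18 were not tested.

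Among the relatives of HES2, HES1 went down. Of 9 other HES and HEY family genes, 3 changed over the 9 days, a share near the 39.9% of all probes, and 1 without animal 3. Over all probes the count also fell without animal 3, from 13961 to 3606. HES1, the main Notch effector of the family, fell by 1.47 ± 0.39 (SE) at day +60 (adjusted p = 0.00659) and by 1.18 ± 0.39 at day +240 (adjusted p = 0.0426), in 4 of 4 animals at both days. HES7, known from the segmentation clock of the embryo, fell by 1.30 ± 0.26 (adjusted p = 0.000846) and 1.05 ± 0.26 (adjusted p = 0.0109), at a level well above background on only 23 of 36 arrays. BHLHE40, a repressor tied to the circadian clock, rose by 0.87 ± 0.28 at day +240 (adjusted p = 0.0418), in 4 of 4 animals. Over the 9 days HES1 lost its call with brightness in the fit and without animal 3 or 4, HES7 with quantile normalization and normexp, and BHLHE40 without animal 1, 2 or 3. At day +60, 3 of the 9 were lower (HES1, HES7 and BHLHE41), where 16% of all probes were.

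In the Notch pathway, DLL3 and ADAM10 were lower and DLL4 was higher. Of 23 ligands, receptors and core genes, 8 changed over the 9 days, where 39.9% of all probes did, and 3 without animal 2 or without animal 3. Over all probes the count also fell, from 13961 to 5305 without animal 2 and 3606 without animal 3. Of the ligands, DLL3 fell by 1.43 ± 0.29 (SE) at day +60 (adjusted p = 0.000981), and DLL4, the ligand of sprouting vessels, rose by 1.16 ± 0.30 at day +240 (adjusted p = 0.0124). ADAM10, a protease that cuts the receptor, fell by 0.88 ± 0.22 at day +60 (adjusted p = 0.00426) and 0.90 ± 0.22 at day +240 (adjusted p = 0.00827). DLL3, DLL4 and ADAM10 each moved the same way in 4 of 4 animals. Of the receptors, NOTCH1 differed by -0.26 and NOTCH4 by 0.72 at day +240, and neither passed the test (adjusted p = 0.606 and 0.164); RBPJ, the factor that carries the signal to DNA, differed by 0.17 (adjusted p = 0.589). Over the 9 days ADAM10 kept its call under all 12 alternatives, DLL3 lost it with normexp and DLL4 without animal 2. At day +240, 3 of the 23 were higher and 1 lower, beside 5.44% and 7.14% of all probes.

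Among the genes of HGF and MET, the pathway tied to MACC1, the receptor MST1R had the largest change. Of 18 measured, 5 changed over the 9 days, where 39.9% of all probes did. The count was 3 without animal 1, and 1 without animal 2 or without animal 3. Over all probes it also fell, from 13961 to 6639, 5305 and 3606 without animal 1, 2 or 3. MST1R, the receptor of macrophage-stimulating protein and closest relative of MET, averaged -3.33 at day -30, -0.06 at day +60 and -0.999 at day +240. It rose by 3.27 ± 0.56 (SE) at day +60 (adjusted p = 0.000154) and 2.33 ± 0.56 at day +240 (adjusted p = 0.00799), in 4 of 4 animals at both days, and kept its call over the 9 days under all 12 alternatives. SPINT2, an inhibitor of the proteases that activate HGF, rose by 1.35 ± 0.33 at day +60 (adjusted p = 0.00368) and 1.12 ± 0.33 at day +240 (adjusted p = 0.0240). The adapter SHC1 and the HGF-activating protease HGFAC changed over the 9 days (adjusted p = 0.0184 and 0.0230) but passed neither day comparison. MET differed by -0.30 at day +60 and 0.10 at day +240 (adjusted p = 0.607 and 0.892), and the ligand HGF by -1.91 and -0.67 (adjusted p = 0.0785 and 0.620), at a level well above background on 28 of 36 arrays. SH3BP4, which is related to MACC1 in sequence, differed by 0.96 at day +60 (adjusted p = 0.108). Over the 9 days SPINT2 lost its call with brightness in the fit and without animal 2 or 3, HGFAC without animal 1, 2 or 3, and SHC1 without these and with normexp.

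The genes most like each member were sought by Pearson's r over the 36 arrays with the member's brightest probe, among 11571 genes. Nearest to TM4SF18 were GRB14, an adapter that binds the insulin receptor (r = 0.881), DLGAP5 of the mitotic spindle (0.872), the cytokine IL15 (0.870), ANLN of the cleavage furrow (0.856) and KIF23 of the spindle midzone (0.842). DLGAP5 was well above background on only 26 of 36 arrays. IL15 and GRB14 also changed over the 9 days, with adjusted p of 1.09e-06 and 5.99e-06, and were 1.35 and 1.72 lower at day +240 (differences -1.35 and -1.72). Most opposed to TM4SF18 were PPP3CC, a calcineurin subunit (r = -0.860), HEXIM1, which holds back transcript elongation (-0.836), and SSBP3 (-0.823).

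Nearest to HES2 probe 1 were P4HA2, a prolyl hydroxylase of collagen (r = 0.948), the chaperone partner DNAJB2 (0.917), HEXIM1 (0.915) and the chromatin protein PHF1 (0.892). Most opposed were WWTR1, the Hippo coactivator also called TAZ (r = -0.915), GRB14 (-0.905) and SAMD13 (-0.882). Nearest to MACC1 were GPSM2, which orients the spindle (r = 0.875), WWTR1 (0.871), DLGAP5 (0.855), the ubiquitin ligase subunit FBXW7 (0.852) and NNT, a mitochondrial source of NADPH (0.846). Most opposed to MACC1 were FGD5, an exchange factor of endothelium (r = -0.858), PPP3CC (-0.856) and ARMC7 (-0.845). All of these genes changed over the 9 days by the F test, where 39.9% of all probes did, and the choice by likeness to a changing gene makes that no independent count. GRB14, DLGAP5, HEXIM1, PPP3CC and WWTR1 each stood on the lists of more than 1 member.

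On the cattle genome, 7 named genes or transcripts had a kept probe within 250 kb of the TM4SF18 probes, and 3 of them changed over the 9 days, where 39.9% of all probes did. WWTR1, 220.4 kb away at chr1:119583398-119583457, differed by -1.13 ± 0.33 (SE) at day +240 (adjusted p = 0.0231) and had an r of 0.819 with TM4SF18 probe 1. HLTF, a DNA repair helicase 204.4 kb away, differed by -1.36 ± 0.39 (adjusted p = 0.0213), and CP, the copper protein ceruloplasmin 85.6 kb away, by -0.99 ± 0.80 (adjusted p = 0.428). The family neighbours TM4SF1 and TM4SF4, 45.0 and 199.7 kb away, did not pass the test. Within 250 kb of the HES2 probes lay 18 genes or transcripts, of which 9 changed over the 9 days, beside the same 39.9%. NOL9, a kinase of ribosomal RNA processing 104.8 kb away, fell by 2.28 ± 0.40 at day +240 (adjusted p = 0.000601), opposite to HES2 probe 1 (r = -0.594), and KLHL21, a ubiquitin ligase adapter 139.7 kb away, differed by 0.66 ± 0.24 (adjusted p = 0.0621; r = 0.640). No other named gene had a kept probe within 250 kb of MACC1. The calls of WWTR1 over the 9 days held under all 12 alternatives, NOL9 lost its call with normexp, and HLTF and CP lost theirs under 5 and 2.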

How the data were processed

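The authors deposited 1 scanner file per array (Feature Extraction 10.7.3.1, per the file headers), with intensity values and quality marks of another unit, 0 or 1, and a table of log2 values, made with GeneSpring 12 and tested with JMP Genomics 7 in a model with a fixed time and a random yak term, per the labels' design text. Comparison of the deposited log2 table with the scanner intensity showed that the 75th percentile of each array was set to 0. Column medians lay between -1.70 and -1.34. The table holds 34997 of 43653 probes; 34995 were kept, each flagged well above background on 3 or more of the 4 arrays of some day. Scanner files were matched to columns by value (next best r at most 0.989; r with the file of the same label 0.870 to 0.982), and gave the quality marks, slide and brightness (75th percentile 1029 to 6450 intensity units; 68.6% to 89.3% of spots well above background; 0 saturated). The day labels of the scanner files were not used. For a gene with several probes, that of highest mean stood for it, except for the 3 genes described. Gene symbols are those of the files; 11574 of 20108 kept symbols, and all 3 members, are in RefSeq's yak gene table.

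Differences were estimated in R 4.3.3 with limma 3.58.1 and statmod 1.5.0 on all 36 arrays, with day as fixed factor and yak as random block, two-sided, adjusted by Benjamini-Hochberg over all 34995 probes and called at an adjusted p under 0.05: an F test over 9 days, and day +1, +60 and +240 each against day -30. Consensus correlation was 0.0501. By the titles, the same yak was sampled at each day. After removal of day means, r averaged 0.148 within an animal and -0.0495 between animals, and 32 of 36 arrays matched best the same animal. Each animal kept its position on the slide, so this likeness cannot tell animal from position. Alternatives changed the block, filter, normalization, background correction, brightness as a covariate and the animals included. Named from each of 12 lists were up to 4 called genes of largest F, per member the 5 nearest and 3 most opposed by r, and genes within 250 kb; a few named by this rule are not reported here. Members and lists were chosen with earlier results of these data known. Python 3.11.15 and matplotlib 3.10.9 drew the figures.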

Additional observations from a re-analysis of the deposited data

Results flagged for a closer look

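At day +240, animal 4 lay far above the other animals at all 3 probes of TM4SF18. Its gap to the nearest animal was 0.83 of the whole range at probe 1 (1.69, others -0.94 to -0.49), 0.936 at probe 2 (0.93, others -1.76 to -1.59) and 0.89 at probe 3 (-0.13, others -3.21 to -2.87), each above Dixon's critical value for 4 samples. These were 3 of 54 groups of 4 examined, chance marks about 1 group in 20, and the probes read the same gene on the same array. The cell division genes of that array averaged -1.81, where the other animals had -4.26 to -3.69, and its milk protein genes averaged 6.38, within the range of the others (3.32 to 7.56). Why this array differed was not tested.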

How the results depend on the processing

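The number of probes changed over the 9 days was 13961, with 12199 without the replicate block and 14361 with the animal as a fixed block. It was 7369 with normexp and 3606 to 9872 when 1 animal was left out. At day +1, 1807 probes were called; 2715 with quantile normalization, 932 with normexp, 4138 with brightness in the fit, 5913 with those 2 days alone and 117 to 1157 without 1 animal. At day +60, 9675 were called; 3956 with brightness in the fit and 4113 to 6782 without 1 animal. At day +240, 4402 were called; 1737 with normexp, 2691 with brightness in the fit, 3782 without the replicate block and 425 to 4361 without 1 animal, with the lowest values (425 and 593) without animal 3 and animal 2. Of the 4 family and pathway lists, 17 genes were called over the 9 days, 11 with normexp and 5 to 15 without 1 animal. Leaving out an animal leaves fewer arrays in the fit; the cause of the other shifts was not tested. HES2 reversed with the probe, from 1.64 at probe 1 to -1.49 at probe 2 at day +240. TM4SF18 kept its direction at day +240 under each alternative (-2.60 to -1.58), as did MACC1 (-2.22 to -1.56) and HES2 probe 1 (1.29 to 1.99), each over normalizations and 1 animal left out. Of 31 named genes of the lists, 9 kept their call under all 12 alternatives and 22 lost it under 1 or more; the calls of TM4SF5, ACTA2 and CD2 were lost without the replicate block. Without the arrays of animal 4 at day +240, or at day +120 and +180, choices made after seeing the data, 14076 and 16594 probes were called over the 9 days; without the latter arrays 2421, 11233 and 6299 were called at day +1, +60 and +240, and without either, 19 list genes.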
